A study of Moxostoma hubbsi with 18 samples.

Results

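Baseline RNA levels were described in whole copper redhorse larvae (Moxostoma hubbsi, a river fish of the sucker family that is endangered), reared in laboratory water as the controls of a study on river water. The 9 laboratory water libraries were taken by the treatment given in their labels and by the control class line of the deposited count table, and they make up 9 of the 18 libraries of the series. For each library 5 whole larvae were pooled, 14 days after fertilization. The labels name no strain, parentage or tank, and they do not say whether the pools were reared apart, so the spread given below is that between these pools and may be partly technical. The river water libraries took no part in any value below.

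Features carry identifiers of the form that KEGG gives to groups of orthologous genes, so 1 feature may sum the reads of several related genes. Suckers descend from an ancestor with a duplicated genome, and copies of 1 gene would then share a feature. The identifiers come without gene names in the files, and no table of names was used here. Names, tissues and functions were therefore not assigned, and the markers of the labelled tissue were not checked. At most 2 identifiers are printed at each end of an ordering, apart from K04257 and K00650, named after their values were seen. All other features are given by rank. A whole larva mixes muscle, skin, gut, liver, nervous system and the other organs in 1 RNA sample. In such bulk samples, fewer cells of a type and less RNA per cell cannot be told apart.

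Levels are given as CPM, the count of a feature in each 1000000 counts of its library. No gene lengths were used, so the order of features is an order of counts and not of transcript molecules. Library totals were between 15896986 and 20588718 counts. Of 9645 listed features, 9340 had at least 1 count in all 9 libraries and 55 had none in any. No library repeated another: between the members of all 36 pairs the counts differed beyond counting noise, with a chi-square per degree of freedom of at least 4.12, and Spearman correlations across features were between 0.993 and 0.997.

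The counts of these libraries were dominated by few features. A single feature, K10352, held 7.94% ± 0.527 (SD, n = 9) of all counts, and the 10 most abundant held 25.2% ± 0.744 (SD, n = 9). The 20 most abundant held 31.5% ± 0.748 (SD, n = 9), the 100 most abundant 50.8% ± 0.920 (SD, n = 9), and the 1000 most abundant 78.2% ± 0.751 (SD, n = 9). It took 94.6 ± 7.21 features (SD, n = 9) to reach 50% of the counts, with 86 in replicate 3 as the fewest and 105 in replicate 1 as the most. For 90% of the counts between 2590 and 2808 features were needed.

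Sorted by level, 120 features averaged at least 1000 CPM. They were 1.24% of the features and held 52.9% of the counts. Another 1057 features averaged between 100 and 1000 CPM and held 27.2% of the counts. The largest class by number was that between 10 and 100 CPM, with 5346 features and 18.6% of the counts. A further 2448 features between 1 and 10 CPM held 1.30%, and 674 features under 1 CPM held 0.0209%.

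The most abundant feature was K10352, with a mean of 79363 ± 5274 CPM (SD, n = 9). Its lowest level was 72464 CPM in replicate 2, its median 79956 CPM, and its highest 86786 CPM in replicate 7. The second, K12314, averaged 47857 ± 1737 CPM (SD, n = 9), with 44953 CPM in replicate 1 as its lowest level, a median of 47915 CPM and 49998 CPM in replicate 3 as its highest. K10352 was above K12314 in every library, and their ranges lay far apart. The mean level then fell to 27253 CPM for the third feature and to 5163 CPM for the 20th, against 5044 CPM for the next feature outside the 20.

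The order at the top was shared by all pools. The first 6 ranks were held by the same 6 features in all 9 libraries. Of the 19 neighbouring pairs among the 20, 7 stood in the same order in every library, and for 6 pairs the ranges of the 2 neighbours did not overlap. From rank 7 down most neighbours exchanged places in at least 1 library, and whether their levels differ was not tested. In all, 16 features were among the 20 most abundant of every library, and 26 were so in at least 1.

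**Figure D1:**
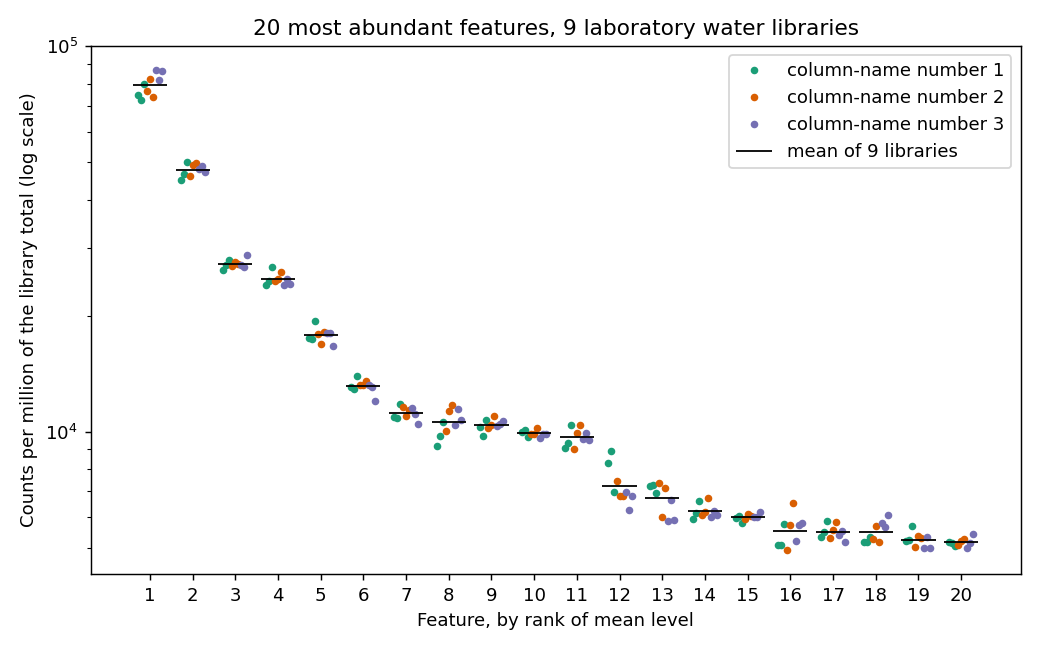
Levels of the 20 most abundant features (x axis, rank of the mean) in CPM of the library total (y axis, log scale). Each point is 1 of the 9 laboratory water libraries, coloured by the number in its column name, and black lines are means. The first 6 features keep their order in every library, while most neighbours at later ranks exchange places between libraries.

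Among the 20 most abundant features the coefficient of variation (CV, the SD as a percent of the mean) between pools had a median of 4.20%, and it was under 5% for 13 of them. The steadiest was the feature of rank 10, with a CV of 1.88% around 9893 CPM. The most variable was that of rank 12, with a CV of 11.5%. Its levels had a median of 6959 CPM, with 6248 CPM in replicate 8 as the lowest and 8903 CPM in replicate 2 as the highest. Counting alone would give a CV of at most 0.326% in these 20 features, less than the smallest CV observed among them. The observed CVs rest on column totals and depend on the scaling. On TMM-scaled library sizes the CV of K10352 was 7.87%, against 6.65%, and that of K12314 was 6.37%, against 3.63%.

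Abundant features were taken as those with a mean of at least 100 CPM, of which there were 1177. Their CV had a median of 5.29%, against 1.67% from counting alone. It was under 5% for 528 features, or 44.9%, over 10% for 132, or 11.2%, and over 20% for 20. The highest library was at a median of 1.18 times the lowest. The steadiest abundant features were K08832, at 121 ± 1.57 CPM (SD, n = 9) with a CV of 1.30%, and K00020, at 238 ± 3.15 CPM (SD, n = 9) with a CV of 1.32%. Counting alone would give 2.13% and 1.52%. These features were picked as the lowest of 1177, so a CV below the counting value shows nothing about their spread. On library sizes adjusted by edgeR's trimmed mean method (TMM), the CVs of K08832 and K00020 were 3.10% and 1.92%, above the counting values.

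In the less abundant classes the counting error made up more of the spread. Between 10 and 100 CPM the median CV was 7.53%, against 4.43% from counting, and between 1 and 10 CPM it was 13.4%, against 10.2%. Under 1 CPM it was 50.2%, against 44.7%.

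**Figure D2:**
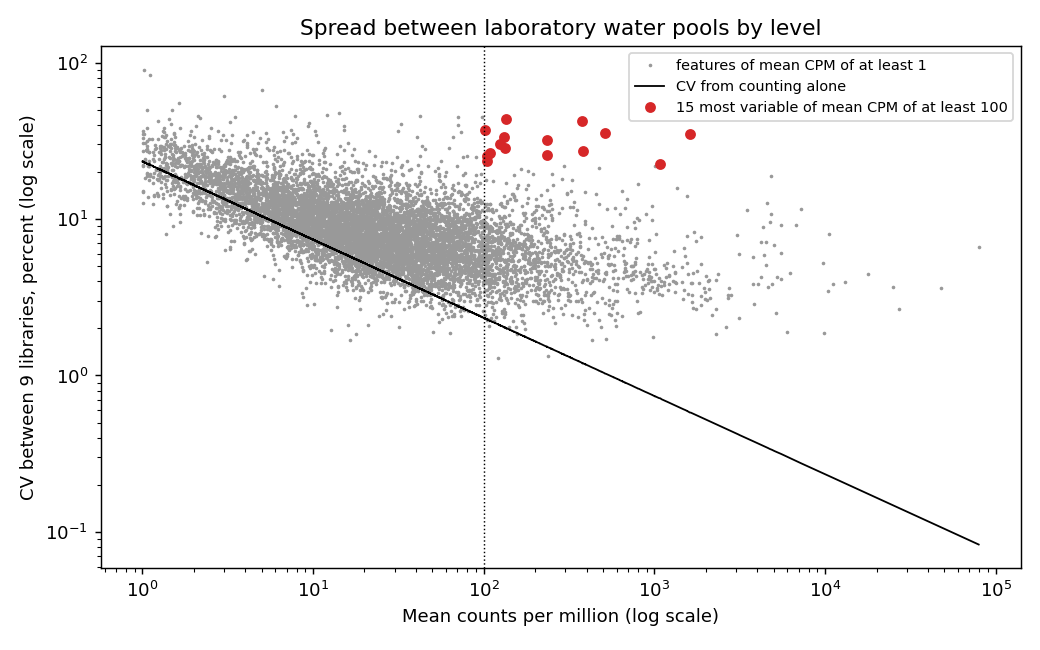
CV between the 9 laboratory water libraries (y axis, percent, log scale) against mean level in CPM (x axis, log scale), 1 grey point per feature of at least 1 CPM. The black line is the CV from counting alone, the dotted line marks 100 CPM, and the 15 most variable features above it are red, with CVs between 22.6% and 43.6%.

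A 2-fold range between the highest and the lowest library was rare. It was found for 11 of the 1177 abundant features, or 0.935%, and 60 features reached 1.5-fold. The 11 averaged between 102 and 1612 CPM and held 0.385% of the counts. None of the 20 most abundant features was among them. Without the highest and the lowest library of each feature, 0 of the 1177 reached 2-fold. Leaving out both ends narrows any range by construction, so this 0 does not show that the ranges rest on 1 pool. With any 1 library left out, 8 to 11 of the 11 still averaged at least 100 CPM with a 2-fold range.

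The 15 abundant features with the highest CV, all 22.6% or more, followed 4 patterns across the pools. These patterns were seen in the data and are a description without a test, since the features were chosen for their spread in the same libraries. The CV of the 15th was 22.6% and that of the next feature, left out, 21.9%.

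The first pattern held the 6 most variable of the abundant features. All 6 were highest in replicate 1, next in replicate 4, second lowest in replicate 8 and lowest in replicate 9. The most variable was K08779, at 135 ± 59.0 CPM (SD, n = 9). Its level was 264 CPM in replicate 1, 147 in replicate 2, 107 in replicate 3, 167 in replicate 4, 131 in replicate 5, 149 in replicate 6, 110 in replicate 7, 86.9 in replicate 8 and 57.5 in replicate 9. The highest pool was thus 4.60 times the lowest, with a CV of 43.6% against 2.00% from counting.

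K01310, the next most variable, averaged 378 ± 161 CPM (SD, n = 9), with a CV of 42.6%. It had 733 CPM in replicate 1, 407 in replicate 2, 332 in replicate 3, 458 in replicate 4, 347 in replicate 5, 424 in replicate 6, 296 in replicate 7, 230 in replicate 8 and 177 in replicate 9. Replicate 1 was above the other 8 libraries, and the CV without it was 29.1%. The 2 features kept nearly the same proportion in every pool: the count of K01310 was between 2.64 and 3.10 times that of K08779. The other 4 of the pattern had CVs of 33.4% to 37.2%. Summed over the 6, the level was 5131 CPM in replicate 1, 3381 in replicate 4, 1882 in replicate 8 and 1503 in replicate 9, with a mean of 2870 ± 1043 CPM (SD, n = 9). Without replicate 1, 5 of the 6 still averaged at least 100 CPM with a 2-fold range.

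The second pattern also held 6 features, with CVs of 23.6% to 30.4%. All 6 were highest in replicate 2 and next highest in replicate 1, and both of these pools lay above the other 7 in each of the 6, by a factor of at least 1.18. Their lowest library always bore the number 3 in its column name, as did the lowest library of every feature in the other patterns. The leading feature was K06499, at 124 ± 37.6 CPM (SD, n = 9). It had 180 CPM in replicate 1, 189 in replicate 2, 129 in replicate 3, 129 in replicate 4, 113 in replicate 5, 101 in replicate 6, 90.6 in replicate 7, 88.1 in replicate 8 and 94.3 in replicate 9. Summed over the 6 features, the level was 1481 CPM in replicate 1 and 1512 CPM in replicate 2, and between 762 and 1166 CPM in the other 7 libraries.

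The third pattern rested on 1 pool at each end. It held K04257 and K00650, named after their values were seen, which were both highest in replicate 5 and lowest in replicate 7. K04257 averaged 235 ± 75.1 CPM (SD, n = 9), with 64.5 CPM in replicate 7 and 346 CPM in replicate 5, while the other 7 libraries lay between 212 and 273 CPM. Its highest pool was 5.36 times its lowest, the widest range among the 15, and without replicate 7 its CV was 16.5% in place of 32.0%. K00650 averaged 133 ± 37.9 CPM (SD, n = 9), with 71.4 CPM in replicate 7 and 218 CPM in replicate 5, and the other 7 libraries lay between 119 and 141 CPM. Its CV was 28.4%, and 18.0% without replicate 5.

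The remaining feature was K07610, at 1085 ± 245 CPM (SD, n = 9). It had 1664 CPM in replicate 9 and 1267 CPM in replicate 6, and 895 to 1104 CPM in the other 7 libraries. Its CV was 22.6%, and 12.0% without replicate 9.

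**Figure D3:**
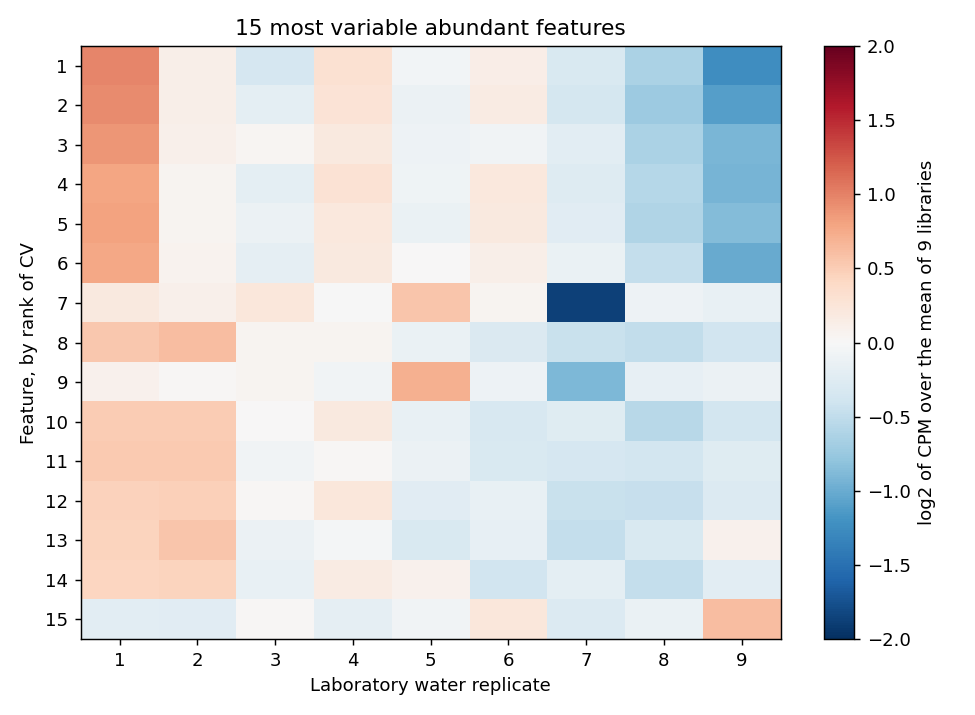
The 15 most variable features of at least 100 CPM (rows, by rank of CV) in the 9 laboratory water libraries (columns, replicate number). Colour is the log2 of the level over the mean of the 9 libraries. Rows 1 to 6 are red in replicate 1 and blue in replicate 9, rows 8 and 10 to 14 are red in replicates 1 and 2, rows 7 and 9 are blue in replicate 7, and row 15 is red in replicate 9.

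The pools were also compared by principal components of log2 CPM on TMM-scaled library sizes, over 6523 features of at least 10 CPM. The first component held 31.4% of the variance, the second 25.7% and the third 10.7%. The sign of a component is arbitrary and was set so that replicate 1 is positive. On the first, replicates 1 and 2 stood together at one end, with scores of 8.0 and 7.6, and replicate 4 followed at 3.8. Replicate 6 was at the other end at -7.8, with replicate 8 at -5.5. The second component placed replicate 6 highest, at 9.1, and replicate 9 lowest, at -7.0. Libraries with the number 1 in the column name scored 2.1 to 3.5 on it. Those of number 2 scored -1.3 to 9.1 and those of number 3 -7.0 to -2.9. Without replicate 1 or without replicate 2, the first component's loadings correlated with those from all 9 pools at 0.614 and 0.640 across features. That correlation was 0.84 without replicate 6 and at least 0.9 without any other library. The axis thus changed most when replicate 1 or replicate 2 was left out.

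At the high end of the first component, 9 of the 10 abundant features with the largest loadings were among the 15 most variable. The loadings grow with a feature's own spread in the same libraries, so this overlap is no separate result. K08779 and K06499 led, with changes of 0.34 and 0.33 in log2 per SD of the score. At the low end were K08758, with -0.31, and K07610, with -0.17. K08758 averaged 295 ± 64.2 CPM (SD, n = 9). Its lowest levels were 213 CPM in replicate 4, 222 in replicate 2 and 240 in replicate 1, and its highest 380 CPM in replicate 8, 368 in replicate 6 and 362 in replicate 9.

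**Figure D4:**
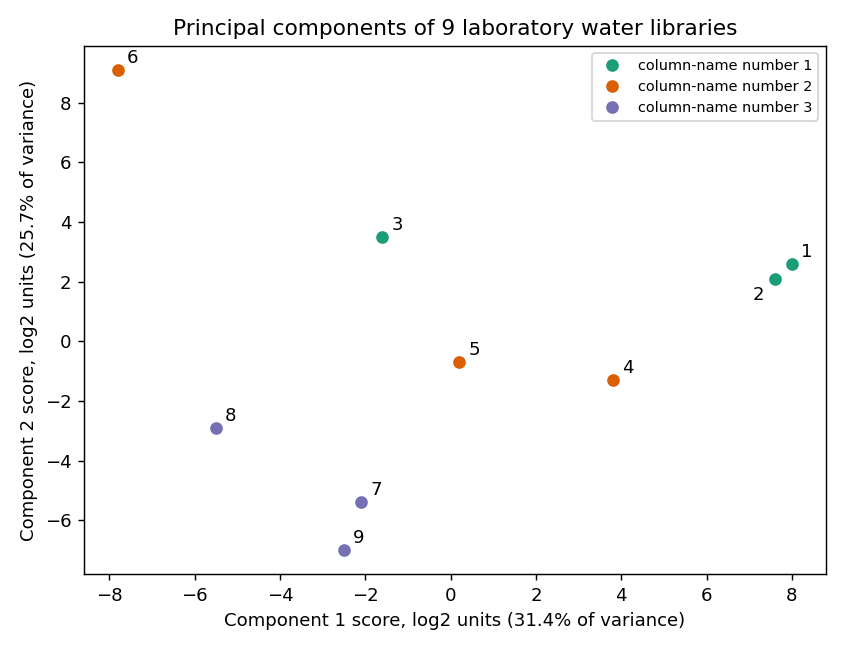
Scores of the 9 laboratory water libraries on the first (x axis) and second (y axis) principal component of log2 CPM, in log2 units, with the share of variance on each axis. Each point is 1 library, with its replicate number, coloured by the number in its column name. Replicates 1 and 2 lie together at the right, and replicate 6 lies apart at the upper left.

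Single pools also differed in how many features set them apart. Over the 6523 features of at least 10 CPM, replicate 1 had 50 features at least 1.5 times the median of the other 8 libraries, and 12 at least 2 times. Replicate 2 had 35 at 1.5 times or more. Replicate 6 had 48 features at least 1.5-fold below the median of the others and 0 above, but 1 at least 2-fold below. At least 2-fold below were 6 features in replicate 9, 1 each in replicates 6 and 7, and 0 in the remaining libraries. At 1.5-fold, the other 6 libraries had between 0 and 4 such features above and between 0 and 17 below. With no fold required, replicate 6 stood at both extremes most often. Of the 1177 features of at least 100 CPM, it was the highest library for 277 and the lowest for 290.

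The column names carry a number from 1 to 3, with 3 libraries for each, whose meaning the labels do not state. By that number 88 of 9182 tested features differed (0.958%, edgeR quasi-likelihood F test with Benjamini-Hochberg adjusted p under 0.05), and 1008 had an unadjusted p under 0.05. These calls and their directions come from the same libraries, so the directions are a description. Of the 88, 80 were highest in number 1, 1 in number 2 and 7 in number 3, while 7 were lowest in number 1, 2 in number 2 and 79 in number 3. The mean levels differed between the numbers by 1.23-fold to 3.27-fold, with a median of 1.49-fold. The 88 held 0.615% of the counts, and 0 of the 20 most abundant features were called. Of the 1177 abundant features 9 were called, or 0.765%, close to the share over all features. The number of calls moved by over 1.5 times without any single library other than replicate 5. It was 23 without replicate 1, 24 without replicate 2, 281 without replicate 3, 138 without replicate 4, 69 without replicate 5, 179 without replicate 6, 36 without replicate 7, 40 without replicate 8 and 43 without replicate 9. DESeq2 called 150 features and limma-voom 67, of which 87 and 67 were among the 88. The column names also carry a letter from A to C within each number, and with that letter as a block 183 features were called, the 88 among them.

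Among the called features of at least 10 CPM, K04975 had the lowest p, at 10.4 ± 3.56 CPM (SD, n = 9). Its 3 libraries of number 1 had 15.8, 15.7 and 12.2 CPM, those of number 2 had 10.5, 10.5 and 8.12 CPM, and those of number 3 had 6.36, 7.58 and 6.91 CPM. The 3 sets of libraries did not overlap, and the adjusted p was 0.000572 (edgeR), a value shared with 2 features of 7.46 and 6.03 CPM. K06499, described above, had the next lowest p among features of at least 10 CPM, with mean levels of 164, 115 and 91.2 CPM on TMM-scaled library sizes in numbers 1, 2 and 3 and an adjusted p of 0.00158 (edgeR). Both passed in all 17 other settings. They were picked for a low p in these same libraries, so this is no separate support for them. In contrast, K08779 and K01310 did not pass (adjusted p of 0.527 and 0.423, edgeR), although their mean levels were also highest in number 1, at 170 and 482 CPM, and lowest in number 3, at 85.1 and 235 CPM. Among the 11 features with a 2-fold range, 2 were called, against 0.958% of all tested features. The 11 were picked for their spread in the same libraries, so this count is only a description.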

How the data were processed

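The deposited files hold counts per feature, whole numbers with no normalization, per the values and the file headers. For the aligner, counting program and sequence database, the labels and headers give nothing, and edgeR is listed without a version, per the submitters' processing notes. The series table, used here, has 9645 features, and the sample files have 9025 of them, with 0 differing values. The other 620 features hold 0.0209% of the counts.

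Column totals served as the base of CPM. Among features of at least 100 CPM, spread was described by the CV and by the highest over the lowest library, without a test. The CV from counting is that of a Poisson count at the mean. The test by column-name number used edgeR 4.0.16 in R 4.3.3, with TMM scaling, robust estimation and the default low-count filter (minimum count 10, minimum total 15). DESeq2 1.42.0 and limma 3.58.1 were alternatives. Components used a prior count of 2.

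Features named are the leading 2 at each end of each ordering, a rule shortened because 30 gene lists could not be matched to identifiers. K04257 and K00650 fall outside this rule and were named after their values were seen. The lists, their shares and their relations across pools were not run. Members and lists were chosen with earlier results of these data known.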

Additional observations from a re-analysis of the deposited data

Results flagged for a closer look

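Of 19 sets of 9 values examined for a library far from the rest, 4 passed the limit for the gap to the nearest library, where about 1 in 20 would do so by chance if values were normally distributed. All 4 are features chosen for their spread in the same libraries, so that rate does not hold for them. K01310 was far highest in replicate 1, at 733 CPM, and K07610 in replicate 9, at 1664 CPM. K04257 was far lowest in replicate 7, at 64.5 CPM, and K00650 far highest in replicate 5, at 218 CPM.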

How the results depend on the processing

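No paired analysis was possible because the waters were not compared and the replicate numbers 1 to 9 are used once each among these libraries. With the letter of the column name as a replicate block, a setting chosen after seeing the data, the 88 calls by column-name number became 183, all 88 included. The meaning of the letter is not stated. Deviations from the means of the numbers correlated at -0.168 to 0.353 in 9 pairs of the same letter, with a mean of 0.042 and 4 over 0.1. In 18 other pairs they correlated at -0.469 to 0.309, with a mean of -0.0194 and 5 over 0.1. These ranges overlapped. The deviations cancel within each number, so the means of both kinds of pair are tied to each other. The comparison therefore cannot decide whether the letter pairs the libraries, and the main test was run without it. The share of counts in the 20 most abundant features was 31.4% to 31.7%, and the number of features holding 50% of the counts 93.2 to 95.6, under every alternative run. The SD of that share between pools was 1.58 with TMM scaling, against 0.748 on column totals. The 11 features with a 2-fold range became 17 at a minimum of 50 CPM, 5 at 200 CPM, 0 with the second highest over the second lowest library, 9 with TMM scaling and 9 to 12 with 1 library left out. The median CV of 5.29% was 5.80% with TMM scaling and 4.78% to 5.48% with 1 library left out. The 88 features that differed by column-name number became 150 with DESeq2, 67 to 108 in the other 6 settings, and 23 to 281 with 1 library left out. The share of the first component, 31.4%, was 27.0% at a minimum of 1 CPM, 37.7% at 100 CPM, 37.8% with column totals, and 31.0% to 38.4% with 1 library left out. Mean levels of the named features moved by less than 1 SD in all 132 recalculations. Most of these left out 1 of the 9 libraries, which cannot move a mean by 1 SD, so they are no test of stability. The CVs of the named features moved by over 1.5 times in 5 of 110. These were K12314 (6.37%) and K08832 (3.10%) with TMM scaling, and K07610, K04257 and K00650 without 1 library each, as given above. Depth limits the spread that can be seen under 10 CPM, where the counting CV is most of the observed one.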
